A study of Mus musculus with 7 samples.

Results

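The clustered protocadherins are a family of cell adhesion proteins encoded one after another in the Pcdha, Pcdhb and Pcdhg subclusters. They were taken here as every gene entry of the expression tables whose symbol starts with Pcdha, Pcdhb or Pcdhg, which gave 59 of 23583 entries. Of these, 15 were Pcdha, 22 Pcdhb and 22 Pcdhg entries, and all lay on the plus strand of chromosome 18 between bases 37089939 and 38001526 of the mm9 build, a span of 911.588 kb. One Pcdha entry, Pcdha4-g, is a fused gene model that starts beside Pcdha4 and reaches into the Pcdhg subcluster. The C-type members Pcdhac1, Pcdhac2, Pcdhgc3, Pcdhgc4 and Pcdhgc5, which close the Pcdha and Pcdhg rows and are regulated apart from the others in neurons, were among the 59.

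Each Pcdha and Pcdhg transcript joins its own first exon, with a promoter of its own, to constant exons shared by the whole subcluster, whereas a Pcdhb gene is a single exon. The proteins bind like to like between cells, and in neurons each cell uses a few promoters, chosen with the help of DNA methylation, the DNA-binding protein CTCF and cohesin, so that neighbouring cells carry different sets. This is best known for self-avoidance of neurites. In skin the family is less studied.

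The cells were primary dermal fibroblasts of female FVB/N mice, kept 8 days in culture and either left untreated or given thapsigargin for 3 h. Thapsigargin inhibits the pump that fills the endoplasmic reticulum with calcium, and so stresses protein folding. RNA was sequenced from 1 untreated and 1 treated library, binding of the bZIP factor CEBPB from 1 untreated and 1 treated library, and binding of the bZIP factor ATF4 from 1 treated library. Bisulfite sequencing covered 2 libraries of untreated cells, held as 1 pooled percent per CpG cytosine. The labels name no genotype, age or number of animals, and no treated methylome was analysed here. With 1 RNA library per condition no difference has a replicate check and none was tested, and intervals cover counting error only. In such bulk samples, fewer cells using a gene and less RNA per cell cannot be told apart.

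The culture carried fibroblast RNA. Levels are in FPKM, which counts fragments by transcript length and relative to the total of the library, and the deposited bounds implied 53915025 fragments in the untreated and 78944250 in the treated RNA library. All 11 fibroblast markers reached FPKM 1 untreated, and their summed level was 16090 FPKM untreated and 4200 treated. Neuron markers, the cell type best known for these genes, summed to 71.5 and 43.4 FPKM. Of the 12 found, 2 reached FPKM 1 untreated: Gap43, a growth cone protein, at 62.5 and Tubb3, a tubulin, at 8.11. After treatment Gap43 read 29.6 and Tubb3 9.94, Syn1, a synaptic vesicle protein, was at 0.368 and 1.60, and the median difference of the 3 markers that reached FPKM 1 in either library was 0.26. Untreated, Syt1, Nefl and Elavl3 were listed at 0 and Rbfox3 at 0.0154. After treatment they read, in that order, 0.0107, 0.671, 0.0173 and 0.0123. Nefm read 0.0668 untreated and 0.844 treated. Schwann cell and melanocyte markers summed to 183 FPKM untreated and 154 treated, of which Pmp22, also made by fibroblasts, gave 122 and 140. Sox10, which defines the neural crest lineage of both cell types, was at 23.4 and 4.31. Keratinocyte markers summed to 18.1 and 2.11 FPKM and macrophage markers to 1016 and 1180, and no endothelial marker reached FPKM 1. The part of these other cells in the levels below was not tested.

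Most clustered protocadherins had partly methylated promoters. Methylation is given as the mean percent over the CpG cytosines within 500 bp of a locus start, of which 10 to 178 were listed per member. Of the 59 starts, 51 lay between 20% and 80%, 8 lay under 20% and 0 over 80%. Among 20907 starts of other genes, 62.5% lay under 20%, 32.4% between 20% and 80% and 5.14% over 80%. The range was narrower still, since 50 of the 59 starts, or 84.7%, lay between 20% and 50%, against 9.31% of other starts. Member windows held a median of 62 CpG cytosines and other starts 87. Among the 6022 other starts with 20 to 80 cytosines, 31.1% lay under 20%, 57.3% between 20% and 80% and 11.6% over 80%, and 18.1% lay between 20% and 50%. Genes in use usually have unmethylated starts: 88.2% of the other starts of genes at FPKM 1 or more lay under 20%. The 34 protocadherins at that level ranged from 0.272% to 49.9% at the start with a median of 30.2%, and the 25 below it ranged from 2.96% to 55.1% with a median of 31.8%.

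The Pcdha starts had a median of 30.6%. The lowest of this subcluster was Pcdhac2 at 1.24%, and the highest was Pcdha8 at 46.0%. Besides Pcdhac2, Pcdha11 at 16.6% and Pcdha12 at 17.2% lay under 20%. These are the last of the ordinary Pcdha first exons, and Pcdha10 before them stood at 25.1%.

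The Pcdhb starts had a median of 32.5%, from 14.6% at Pcdhb1 to 55.1% at Pcdhb13. Pcdhb1, the first of the row and the one that was listed at 0 in both RNA libraries, had the least methylated start of its subcluster. The Pcdhb17 start, of the most abundant member, stood at 39.6%.

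The Pcdhg starts had a median of 29.3%. Pcdhgc3 was lowest at 0.272% over 136 cytosines, and Pcdhga12 was highest at 49.9% over 24. Of those 24, only 2 lay within 250 bp of the Pcdhga12 start. Pcdhgb6, the most abundant of the ordinary Pcdhg members, was the lowest of these at 17.6%, and Pcdhga4 was next at 19.03%.

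The C-type starts fell into different states. Pcdhgc3, Pcdhac2 and Pcdhgc4 stood at 0.272%, 1.24% and 2.96%. Pcdhac1 stood at 21.3%, with 5.71% in the 500 bp before the start and 36.0% in the 500 bp after it. Pcdhgc5 stood at 38.0%, with 18.4% before and 51.8% after. Thus both of the latter were low upstream and partly methylated in the exon.

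**Figure D1:**
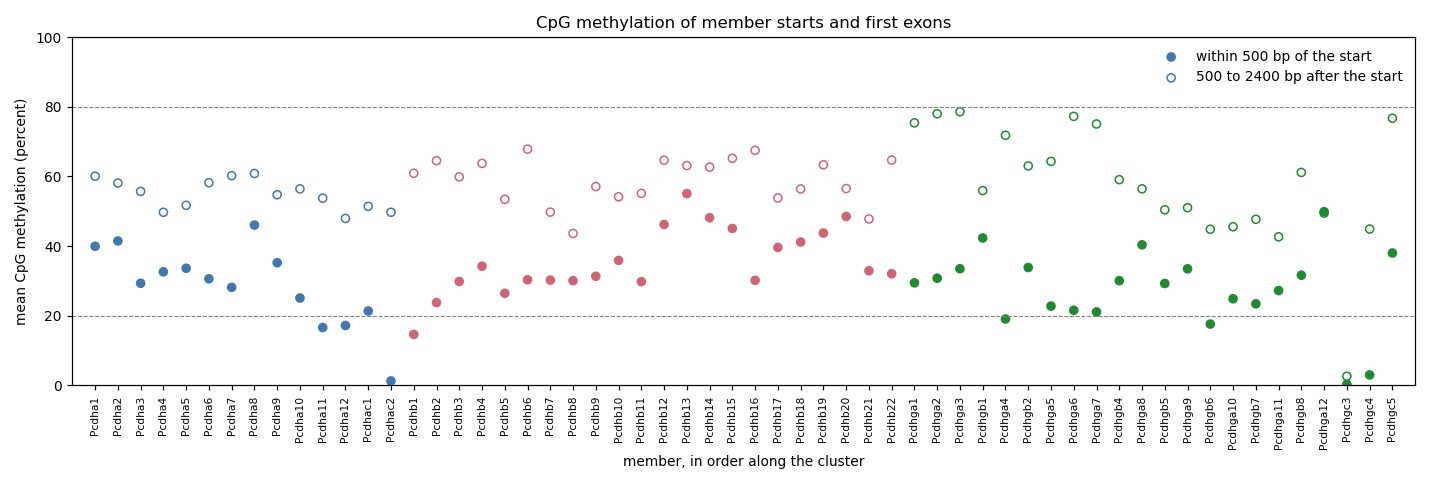
Mean CpG methylation in percent within 500 bp of each start (filled) and 500 to 2400 bp after it (open), by member in cluster order, for Pcdha (blue), Pcdhb (red) and Pcdhg (green) in the pooled untreated libraries; Pcdha4-g is not drawn and the dashed lines mark 20% and 80%. Most filled points lie between 20% and 50% and below their open points, while Pcdhac2, Pcdhgc3 and Pcdhgc4 lie near 0.

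Within the first exons methylation was higher. From 500 to 2400 bp after the start the median was 54.7% in Pcdha, 60.4% in Pcdhb and 57.8% in Pcdhg. The same stretch of 21396 other genes had a median of 54.5%, so these levels were near those of other genes. Of the 59 member stretches 58 lay between 20% and 80%, against 75.2% of the others. The exception among members was Pcdhgc3 at 2.58%. At Pcdhac2 the exon stood at 49.7% and at Pcdhgc4 at 44.9%, so that their low methylation did not reach as far. The first exons of Pcdhga1, Pcdhga2 and Pcdhga3 were among the most methylated at 75.4%, 78.0% and 78.6%.

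Over the whole of the single-exon Pcdhb genes the median was 55.0%. The lowest were Pcdhb8 at 42.6%, Pcdhb1 at 43.8%, Pcdhb21 at 47.8%, Pcdhb10 at 50.8% and Pcdhb7 at 51.1%. The highest were Pcdhb16 at 64.0%, Pcdhb6 at 63.8%, Pcdhb15 at 63.6%, Pcdhb13 at 63.1% and Pcdhb22 at 62.9%. All 22 genes were more methylated over their length than at their start, by 6.71 to 35.0 percentage points with a median of 19.7.

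In 200-bp bins, the dip was centred just before the start. The mean over Pcdhb members was 16.9% in the bin from 200 bp upstream to the start, against 59.6% in the bin centred 700 bp upstream and 66.1% in the one centred 1100 bp downstream. Over Pcdhga and Pcdhgb members these means were 18.99%, 71.6% and 63.2%. The Pcdha dip was wider and lay downstream, at 26.9% in the first bin after the start and 24.7% in the bin centred at 500 bp. The C-type members were lowest, at 5.01% in the bin centred 300 bp upstream.

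**Figure D2:**
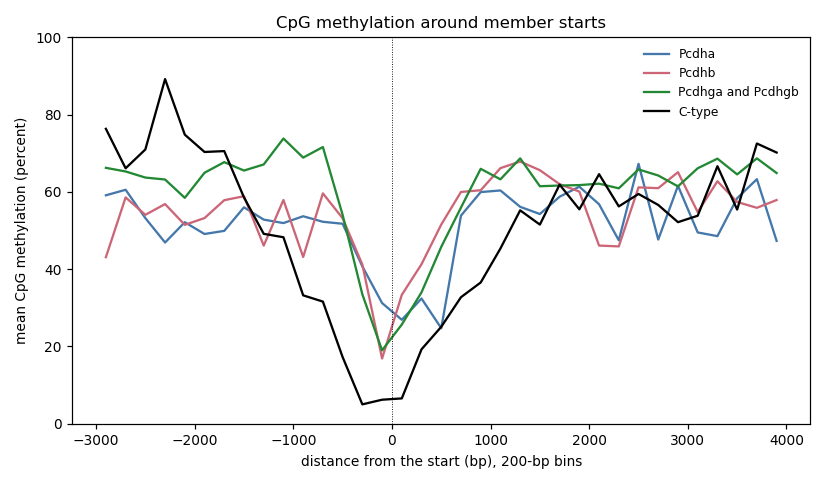
Mean CpG methylation in percent over members, in 200-bp bins by distance in bp from the start, for Pcdha, Pcdhb, Pcdhga with Pcdhgb, and the C-type members. Each line dips at the start, to 16.9% for Pcdhb and 18.99% for Pcdhga and Pcdhgb in the bin just upstream, and the C-type line dips deepest and widest.

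Intermediate means came from intermediate single cytosines as well as from mixtures of low and high ones. In the start windows without C-type members, 61.3% of the 915 cytosines of Pcdha, 59.1% of the 721 of Pcdhb and 57.6% of the 1322 of Pcdhg read between 20% and 80%, against 8.69% of the cytosines at other starts. Other starts whose mean lay between 20% and 50% were much the same, with 59.6% of their cytosines in that range. A percent at one cytosine counts strands of DNA from many cells, so it does not show how methylation was shared out among cells or alleles. The file gives no coverage, and depth behind a single percent is unknown. As a check of precision, the values of both strands of a CpG differed by a median of 8 percentage points over 9843 CpGs of the cluster, and the strand means of a start window by an SD of 3.95.

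The cluster had a mean methylation of 53.3%, against 68.3% for chromosome 18 and 66.4% for the genome. The flanks were close to the cluster, at 54.7% over the 187 cytosines in the 20 kb before it and 56.9% over the 464 in the 20 kb after it. Windows of 500 bp under 20%, joined where they touched or overlapped, formed 43 stretches in the cluster, of which 26 held a member start. The longest, 4000 bp at 2.88%, covered the start of Pcdhgc3, and Pcdhgc4 had 2200 bp at 8.89% and Pcdhac2 1900 bp at 4.82%. One of 1900 bp at 8.48%, from base 37376639 to 37378538, lay 29325 bp after the last Pcdha base, between Pcdha and Pcdhb, and held no gene start. Known Pcdha enhancers lie in this neighbourhood, but none of the files assigns one to it. Another of 1400 bp at 6.32% held the start of Taf7, a general transcription factor gene between Pcdhb and Pcdhg.

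In untreated cells, 34 members reached FPKM 1: 1 of 15 Pcdha, 12 of 22 Pcdhb and 21 of 22 Pcdhg. In treated cells 22 did, namely 1 Pcdha, 2 Pcdhb and 19 Pcdhg. The summed level of all members was 232 FPKM untreated and 88.8 treated. The Pcdhg share was largest, with 197 and 78.9 FPKM, followed by Pcdhb with 31.6 and 8.41 and Pcdha with 2.79 and 1.44.

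Pcdhgc3, which in mouse and human cells has been described to bind Axin1 and dampen Wnt signalling, led by far. It read 122 FPKM untreated and 41.3 treated, 2.95-fold lower (95% exact interval of the implied fragments 2.90 to 3.01). That interval leaves out the division of constant-exon reads between entries. Pcdhgc3 gave 52.6% of the summed member FPKM in untreated and 46.5% in treated cells, and ranked 411 and 1133 among all entries. The next member, Pcdhgb6, was 12.2-fold below it in untreated cells.

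The other C-type members were far lower. Pcdhac2, which in mice is needed for even spreading of serotonergic axons, read 2.21 and 1.15 FPKM. It was 1.93-fold lower (interval 1.74 to 2.14, which also leaves out the division of constant-exon reads). Pcdhgc5 read 3.92 and 1.35. Pcdhgc4, the isoform that keeps mouse interneurons alive, read 0.884 and 0.160. Pcdhac1 was practically 0 untreated and read 0.00939 FPKM treated. Level and start methylation did not run in one order among these 5: Pcdhgc4 was nearly unmethylated with under 1 FPKM, while Pcdhgc5 had 38.0% and a higher level. Apart from Pcdhgc5, untreated levels were lower the more methylated the start. The levels of Pcdhgc4 and Pcdhgc5 also rest on the division of constant-exon reads.

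The ordinary Pcdha members were near the limit of detection. The highest were Pcdha10 at 0.163 FPKM untreated and 0.0506 treated, Pcdha12 at 0.149 and 0.0896, and Pcdha9 at 0.0795 and 0.00885. Pcdha5 read 0.0572 and 0.0854, Pcdha8 0.0563 and 0.0202, Pcdha4 0.0385 and 0.00907, and Pcdha4-g 0.0355 and near 0. The remaining 6 of them, Pcdha1, Pcdha2, Pcdha3, Pcdha6, Pcdha7 and Pcdha11, stood at or under 0.0105 FPKM in both libraries. Pcdha11 had the lowest start methylation of the ordinary members and read 0.00156 FPKM untreated and practically 0 treated. Pcdha12 and Pcdha10, the next lowest at 17.2% and 25.1%, had the highest untreated levels of them.

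Pcdhb members were low and spread widely. The highest were Pcdhb17 at 5.54 FPKM untreated and 2.43 treated and Pcdhb22 at 4.47 and 1.23. Pcdhb16 read 2.49 and 0.585, Pcdhb20 2.32 and 0.523, Pcdhb5 2.29 and 0.536, Pcdhb14 2.06 and 0.549, Pcdhb7 1.69 and 0.334, and Pcdhb11 1.67 and 0.309. The rest ranged from 0 at Pcdhb1 to 1.40 at Pcdhb19 in untreated cells. Genes late in the row were higher: the median was 0.441 FPKM over Pcdhb1 to Pcdhb13 and 2.06 over Pcdhb14 to Pcdhb22. Near-identical sequence differed along the row as well. From 0% at Pcdhb1 to 24.4% at Pcdhb8 of the windows of a gene had a copy elsewhere over Pcdhb1 to Pcdhb13. Over Pcdhb14 to Pcdhb22 it was 1.89% to 7.58%. The part of such copies in the levels was not tested. The order of levels carried over between libraries (Spearman 0.909 across the 21 genes other than Pcdhb1), as a description across genes that share sequence and library.

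The ordinary Pcdhg members formed a narrow band from 1.95 FPKM at Pcdhga9 to 9.97 at Pcdhgb6 in untreated cells. Pcdhgb6 read 9.97 and 3.05, Pcdhga10 5.19 and 2.61, Pcdhgb8 4.84 and 1.88, Pcdhga6 4.70 and 3.08, Pcdhga7 4.51 and 2.86, Pcdhga5 4.48 and 2.83, and Pcdhgb2 4.19 and 2.18. Because every Pcdhg entry contains the same constant exons, reads there had to be divided between entries, and the values of single Pcdhg and Pcdha members are estimates that lean on one another. The fragment numbers implied by the confidence bounds differed between subclusters. Within 0.05 they were whole for 21 of 21 Pcdhb genes in the treated and 16 of 21 in the untreated library. Of the Pcdhg entries they were whole for 2 and 3 of 22. The cause was not tested.

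**Figure D3:**
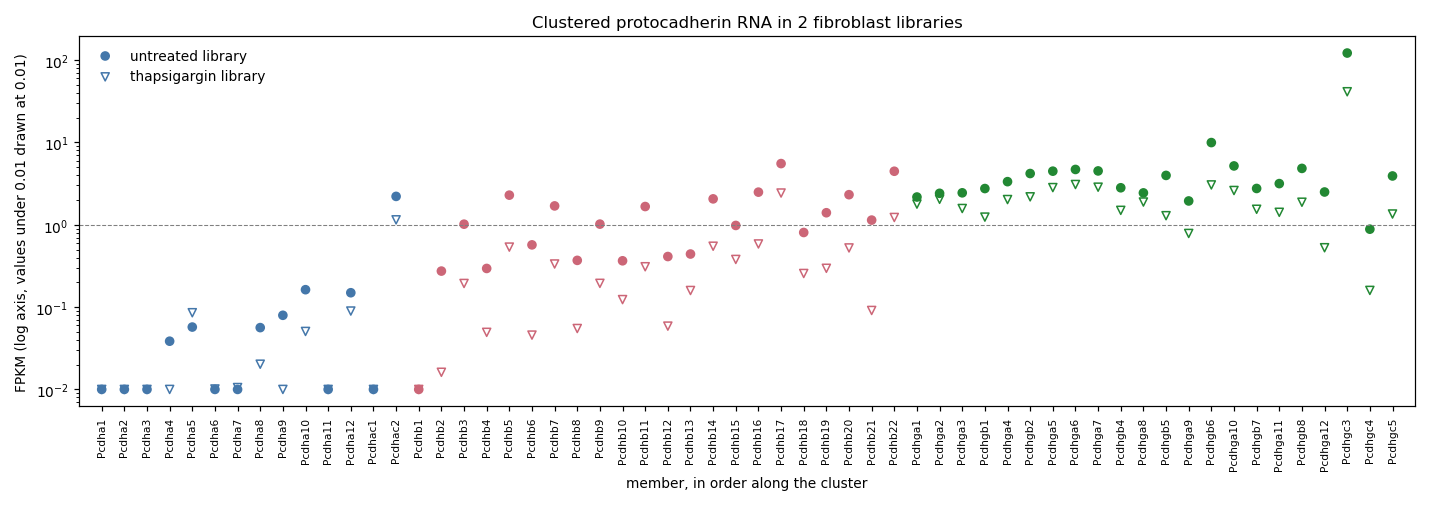
FPKM on a log axis for each member in cluster order in the untreated library (filled circles) and the thapsigargin library (open triangles), for Pcdha (blue), Pcdhb (red) and Pcdhg (green); values under 0.01 are drawn at 0.01, Pcdha4-g is not drawn, and the dashed line marks FPKM 1. Pcdhgc3 stands alone at 122 and 41.3 FPKM, ordinary Pcdha members lie under 0.2, and treated values lie under untreated ones for all Pcdhb and Pcdhg members except Pcdhb1, at 0 in both.

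After thapsigargin no clustered protocadherin at FPKM 1 or more was higher. By the difference of log2(FPKM + 1), counted at 1 or more in size, 12 of the 34 members were lower and 0 higher. Among all 12207 entries that reached FPKM 1 in either library, 28.2% were lower and 6.02% higher by the same rule. The lower members were 6 of 12 Pcdhb and 6 of 21 Pcdhg. All 34 differences were below 0, as were 8868 of the 12207 over all such entries. Medians were -0.999 for Pcdhb and -0.71 for Pcdhg, against -0.52 over all such entries. When changes were centred on the median of entries whose FPKM was 5 or more untreated and treated, 2 members were lower, where 15.8% of all entries were lower and 11.0% higher, and the Pcdhb and Pcdhg medians were -0.60 and -0.31.

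That measure hides much of the change of low genes, so FPKM ratios were also taken for the 50 members with at least 3 implied fragments in both libraries. Of these 49 were lower by any amount, as were 10901 of 15045 entries. By 2-fold or more, 35 members were lower and 0 higher, beside 37.1% of those entries lower and 8.26% higher. Among the entries whose higher FPKM was 0.1 to 10, which is where most members lay, 38.9% were lower and 8.64% higher. The exception was Pcdha5, whose interval of the log2 ratio ran from -0.38 to 1.62. All 21 Pcdhb genes, 10 of 22 Pcdhg and 4 of 7 Pcdha members were lower by 2-fold or more. The median log2 ratio was -2.24 in Pcdhb, or 4.73-fold lower, -0.97 in Pcdhg and -0.64 over all entries.

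Pcdhb17, the highest of its subcluster, had the smallest change of the 21 Pcdhb genes at 2.28-fold lower (interval 2.10 to 2.48). Pcdhb22 was 3.64-fold lower (interval 3.26 to 4.07). Pcdhb2 had the largest change at a log2 ratio of -4.08 (interval -5.60 to -2.86), from 49 implied fragments untreated to 6 treated, and Pcdhb21 and Pcdhb6 followed at -3.65 and -3.64. The implied fragments of all Pcdhb genes together numbered 7294 untreated and 4011 treated, in libraries of 53915025 and 78944250.

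The log2 ratio tended to be lower late in the Pcdhg row, with exceptions. Pcdhga1 and Pcdhga2 differed least, at log2 ratios of -0.29 and -0.24. Over the first 10 of the 19 ordinary members the median was -0.66 and over the last 9 it was -1.31, with Pcdhga12 at -2.25 (Spearman of ratio and order -0.714, n = 19, members that share constant exons and library). Early in the row Pcdhgb1 stood at -1.15, and late in it Pcdhga8 stood at -0.37 and Pcdhgb7 at -0.84. Pcdhgb members had a median of -1.15 and Pcdhga members of -0.66, but Pcdhgb members had 12.8% to 31.9% of their first-exon windows nearly identical to another place in the genome and Pcdhga members at most 6.38%.

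**Figure D4:**
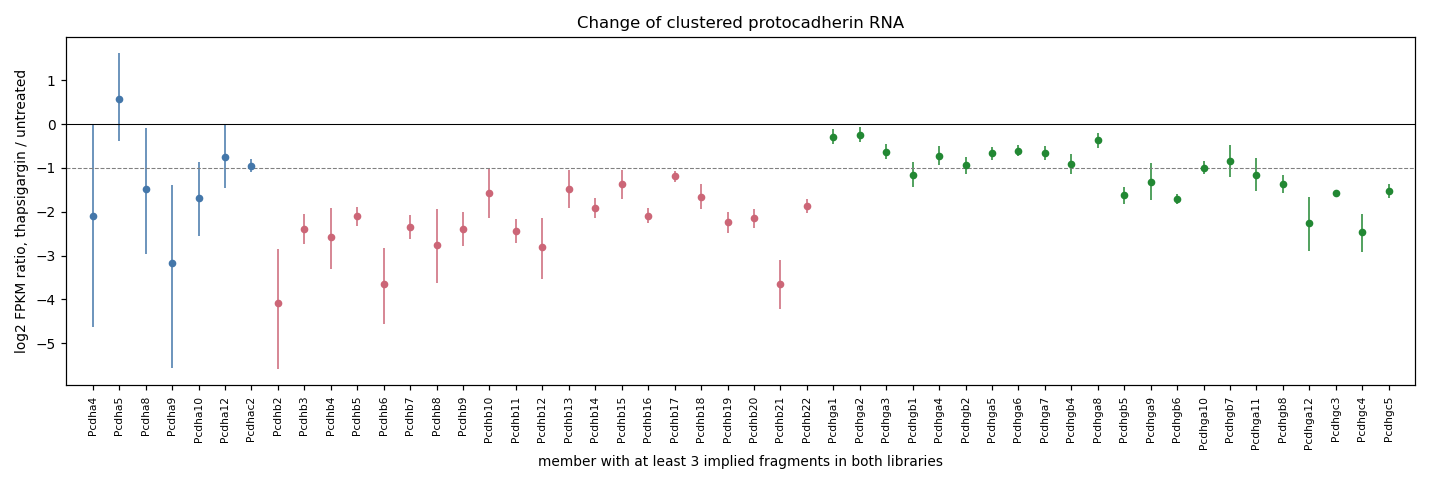
Log2 ratio of FPKM, treated over untreated, with 95% exact intervals of counting error from implied fragments, for the 50 members with at least 3 implied fragments in both libraries, in cluster order; the solid line marks 0 and the dashed line -1. The intervals treat members as counted separately, which does not hold for Pcdha and Pcdhg members with shared constant exons. Pcdhb genes share no constant exon, but up to 24.4% of the windows of a gene were nearly identical to another place in the genome. All 21 Pcdhb points (red) lie under -1, and Pcdha5 is the one point above 0. The Pcdhg points (green) lie mostly lower late in the row, with Pcdhga8 at -0.37 an exception.

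Pcdhb genes have no exon junction, and entries without one had another background in these libraries. The median log2 ratio of 328 other coding entries without a junction was -0.04. By 2-fold or more, 26.2% of them were lower and 20.1% higher, and of the 206 whose higher FPKM was 0.1 to 10, 29.6% were lower and 19.4% higher. Changes on the log2(FPKM + 1) scale were also set against entries of like junction density that reached FPKM 5 in either library. Without a junction these were 129 entries with a median of 0.33. The 210 of the 328 entries above that reached FPKM 1 had a lower median of 0.13. Against the 129 entries, all 12 Pcdhb genes at FPKM 1 or more were lower by 1 or more, with a median of -1.33. Pcdhb3 and Pcdhb9 passed narrowly at -1.09 each, from -0.76 unadjusted. In all, 18 members were lower by this adjustment, where 10.5% of entries were lower and 12.1% higher. Taf7, a gene between Pcdhb and Pcdhg, read 2.26 FPKM untreated and 5.18 treated. Its difference of 0.93 was in the other direction from its Pcdhb and Pcdhg neighbours. Slc25a2, the other listed gene there, read 0.137 and 0.0717, on 11 and 12 implied fragments. Of the listed genes next to the cluster, Zmat2 before it read 21.1 and 12.6 and Diap1 after it 10.3 and 2.18.

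Methylation at the start did not order the Pcdhb levels. Spearman's correlation of start percent and untreated FPKM was 0.026 over 21 Pcdhb genes, -0.591 over 19 Pcdhga and Pcdhgb members and -0.441 over 15557 other starts. Over the 8 Pcdha members above FPKM 0.01, most of them near the limit of detection and without Pcdha11, it was -0.571. The points share a locus, sequence and library, and these are descriptions. Pcdhb13, with the most methylated start, read 0.441 FPKM, and Pcdhb20 at 48.5% read 2.32. Among Pcdhga and Pcdhgb members, Pcdhgb6 at 17.6% had the highest level, and Pcdhga12 at 49.9% read 2.50.

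The authors' peak lists placed 3 CEBPB peaks in the cluster without treatment, and 6 CEBPB and 9 ATF4 peaks after thapsigargin. This was 3.29, 6.58 and 9.87 per Mb, against 2.75, 3.10 and 3.50 over chromosome 18. The chromosome was not matched to the cluster for gene or CpG density, and the difference was not tested. Lists were made from 1 library each, and their scores are on different scales. Within 1 kb of a member start there were 0, 1 and 2 peaks.

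The peaks at starts were of ATF4, at Pcdhac1 and Pcdhac2, where the peak sequence was 3.94% and 1.43% methylated. Their scores, the authors' own, exceeded those of 18.6% and 21.3% of the ATF4 list. A further 6 ATF4 peaks had centres 1284 to 1928 bp after the starts of Pcdha5, Pcdha12, Pcdhb7, Pcdhgb4, Pcdhgb5 and Pcdhgb7, in sequence methylated 42.3% to 58.2%. The one at Pcdhgb4 scored above 91.2% of the list. The last, from base 37681402 to 37681653, lay past the end of Pcdhb22, overlapped a CEBPB peak of treated cells and scored above 93.5% of the list. It was 83.8% methylated, and 98.4% of its neighbouring bases alternated between purine and pyrimidine.

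Of the CEBPB peaks, the one from base 37313675 to 37314145, 10287 bp after the start of Pcdhac2, overlapped a peak of the treated list. In treated cells 1 CEBPB peak lay inside Pcdhb14, in sequence 51.5% methylated, and 1 lay 927 bp from the start of Pcdhgb4. On either strand, the 8-mers CGATGCAA, TGATGCAA and TGACGTCA were in 0 of the 18 peaks of the cluster. TTGCGCAA was in 1, a CEBPB peak of treated cells. These 8-mers were infrequent in the whole lists too. In the ATF4 list TGACGTCA was in 1.88% of peaks and TGATGCAA in 0.743%. In the treated CEBPB list TGATGCAA was in 7.58% and TTGCGCAA in 2.34%. CGATGCAA was in 0.129% to 0.287% of each list.

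**Figure D5:**
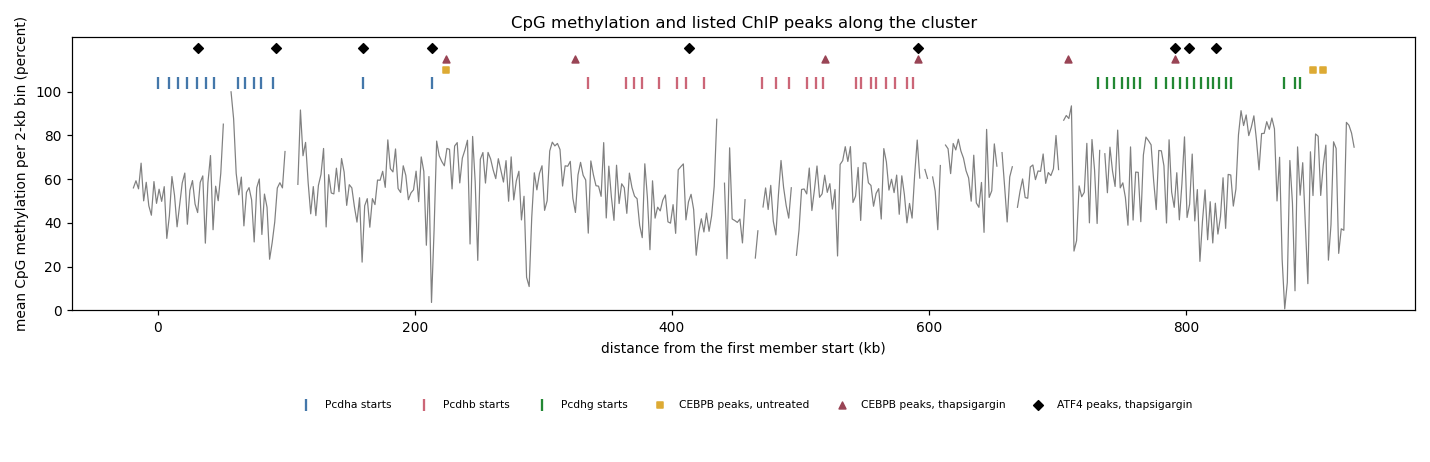
Mean CpG methylation in percent per 2-kb bin (grey line) by distance in kb from the first member start, with ticks above for Pcdha, Pcdhb and Pcdhg starts and, on 3 rows above those from the bottom up, untreated CEBPB, thapsigargin CEBPB and thapsigargin ATF4 peaks; marks above 100% have no value. The deepest troughs lie at Pcdhac2, at Pcdhgc3, at Pcdhgc4 and in the gap between Pcdha and Pcdhb.

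Of 24 regulators of the cluster, 22 were at FPKM 1 or more, 14 were lower and 0 higher, with a median log2(FPKM + 1) difference of -1.22, where 28.2% of all entries were lower and 6.02% higher. Set against entries of like junction density, 3 were lower, where 10.5% of all entries were. Ctcf, whose product binds protocadherin promoters and enhancers, read 17.0 FPKM untreated and 16.4 treated. Pds5a, a cohesin regulator, read 13.9 and 1.33, and Ehmt2, a histone H3 methyltransferase, 52.6 and 10.8. Trim28, a corepressor, read 97.6 and 29.9.

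Of 20 partners found, 19 were at FPKM 1 or more, with 9 lower and 0 higher, beside the same 28.2% and 6.02%. Against like junction density 4 were lower, 0 higher and the median was 0. Nckap1, a subunit of the WAVE complex that protocadherin tails bind, read 36.2 FPKM untreated and 0.917 treated. Marcks, which lies downstream of Pcdhg proteins in mouse neurons, read 289 and 96.5, and Psenen, part of the γ-secretase that cleaves protocadherins, 18.6 and 2.27.

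Of 12 protocadherins outside the cluster, 6 were at FPKM 1 or more, with 4 lower and 0 higher: Pcdh20 read 21.5 FPKM untreated and 2.17 treated, Pcdh1 7.56 and 1.98, Pcdh18 26.6 and 8.95, and Pcdh7 15.8 and 6.39. Of 15 other cadherins, 8 were at that level, with 6 lower and 0 higher. Beside both lists, 28.2% of all entries were lower and 6.02% higher. Against like junction density 4 of the protocadherins and 6 of the other cadherins were lower, where 10.5% of all entries were lower and 12.1% higher. The cadherins were led in level by Cdh11, a mesenchymal cadherin, at 261 and 76.4. Among genes in and beside the cluster, 18 of 21 were at that level, with 6 lower and 1 higher, a lower share near the 28.2% of all entries. Against like junction density 2 were lower and 3 higher, with a median of 0.38. The one higher by the unadjusted change was Cd14, a lipopolysaccharide coreceptor, at 14.8 and 111.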

How the data were processed

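The authors deposited FPKM per gene entry with confidence bounds and a status for 1 untreated and 1 treated RNA library, peak lists with a score per peak, and the percent methylation per CpG cytosine pooled over both bisulfite libraries, without coverage. Per the submitters' processing notes, CASAVA 1.8.2 and Bowtie served RNA, CASAVA 1.7, BWA and SAMtools immunoprecipitation, and CASAVA 1.8 and Novoalign bisulfite reads, on mm9. Per the labels, RNA libraries were made with a TruSeq kit. For the expression program, the peak control and the ATF4 peak caller, the name was not given in the sources used here. Strand was taken as not recorded, so reads of the antisense models Gm10545 (with Pcdha11 and Pcdha12) and Gm16882 (with Pcdhga10, Pcdhgb7, Pcdhga11 and Pcdhga12) cannot be told apart from those members.

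Changes were differences of log2(FPKM + 1) for entries that reached FPKM 1 in either library, and FPKM ratios. Fragments were implied by reading the distance from FPKM to its upper bound as 2 Poisson standard errors, an assumption that the sources used here do not state. Among entries with 3 to 200 implied fragments, 73.7% of untreated and 79.3% of treated ones came out whole within 0.05. Ratio intervals are exact (Clopper-Pearson, 95%) and treat members as counted separately. That does not hold for Pcdha and Pcdhg members, which share constant exons, and near-identical copies limit it for Pcdhb genes. Junction adjustment used 50 bins of entries that reached FPKM 5 in either library. Methylation windows needed 5 cytosines, a call needed a log2 difference of 1, and heterozygous entries were left out. The reference was NCBIM37 with GENCODE vM1. Of listed CpG cytosines in the region, 99.4% fell on a reference CpG. Copies were windows of 100 bp with at most 3 mismatches elsewhere, found with minimap2 2.31-r1302. Scripts used Python 3.11.15, numpy 2.4.6, pandas 2.3.3 and scipy 1.17.1.

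Named were the 8 highest members of each subcluster, the C-type members, the extremes of methylation and up to 4 genes of each list. Of the genes in and beside the cluster more than 4 were named, partly by position rather than level. Other members named beside an order or a peak, Ctcf and the markers were chosen after their values were seen. Members and lists were chosen with earlier results of these data known.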

Additional observations from a re-analysis of the deposited data

How the results depend on the processing

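Of 71 alternatives computed, 44 left a value within its tolerance (counts within 1.5 times, log2 medians within 0.1, methylation within the strand SD of 3.95 points), 27 moved it and 0 reversed it. The cause was not tested. The count of 12 lower members became 21 with a pseudocount of 0.1, 2 when centred, 3 of 10 in members without near-identical copies and, chosen after seeing the data, 35 by FPKM ratio. The Pcdhb median became -1.92 and -1.41 with pseudocounts of 0.1 and 0.5, -0.60 when centred, -1.33 with junction adjustment and -0.76 without a filter. The Pcdhg median became -0.91 and -0.81 with those pseudocounts and -0.31 when centred. At FPKM 2 or more, 10 members stood in the treated library. Windows of 1000 bp gave start medians of 34.8% in Pcdha, 42.0% in Pcdhb and 40.2% in Pcdhg. Windows of 250 bp gave 27.1% in Pcdhb and 22.1% in Pcdhg. Medians within the window gave 26.0% in Pcdha and 24.8% in Pcdhg. Over Pcdhb genes the median over cytosines was 59.2%. With bounds of 10% and 60%, 3 starts were low. Added after seeing the data, correlations with FPKM were 0.206 and 0.239 for Pcdhb at 250 and 1000 bp, and -0.444 for Pcdhga and Pcdhgb at 1000 bp. Within 5 kb of a start there were 3 treated CEBPB and 9 ATF4 peaks. No Pcdhb gene at FPKM 1 or more was free of near-identical copies, so that median could not be computed. No paired analysis was possible because each RNA and immunoprecipitation group had 1 library. Leaving out a bisulfite library was not possible because both were pooled. Few implied fragments limit low members, such as the ordinary Pcdha and Pcdhb2.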
